A study of Homo sapiens with 12 samples.

Results

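The genes described here are 33 genes of cholesterol and fatty acid synthesis, chosen by symbol from the 28539 entries in each deposited table. They comprise 19 enzymes of sterol synthesis, 6 genes that regulate the pathway or carry sterols, and 8 enzymes of fatty acid synthesis, and all 33 passed the low-value filter used for testing. Cells of 3 human lines from triple-negative breast cancer (SUM159, MDAMB231 and HCC1806) were treated for 72 h, and the study sequenced polyA RNA from 1 culture of each line under each of 4 treatments. The treatments were JQ1 plus GSK2801, JQ1 alone, GSK2801 alone and the solvent DMSO, 12 libraries in all. JQ1, an inhibitor of the BET bromodomain proteins, was used at 300 nM in SUM159, 100 nM in MDAMB231 and 500 nM in HCC1806. GSK2801, an inhibitor of the BAZ2A and BAZ2B bromodomains, was used at 10 µM in every line. HCC1806 was grown in RPMI 1640, whereas SUM159 and MDAMB231 were grown in DMEM/F12 with insulin and hydrocortisone, so that a difference of HCC1806 cannot be told apart from its medium or its JQ1 dose. The 3 lines served as the replicates of a treatment, and no line had a second culture of any treatment.

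Cells make cholesterol from acetyl-CoA through the mevalonate pathway to squalene, and then through a chain of sterol intermediates that starts at lanosterol. Fatty acids start from the same acetyl-CoA, which ACLY releases from citrate and ACSS2 makes from acetate, and are built by ACACA and FASN and then desaturated and elongated. Both branches are switched on by the SREBP transcription factors, encoded by SREBF1 and SREBF2. SCAP escorts the SREBPs to the Golgi when membrane sterol is low, and the INSIG proteins hold SCAP back when sterol is plentiful. SREBP-2 is best known for sterol genes and SREBP-1c for fatty acid genes, and serum in the medium supplies both cholesterol and fatty acids to cultured cells.

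The promoters of a few members are shown because TM7SF2 and LBR, whose products catalyse the same sterol step, moved in opposite directions with JQ1, because NSDHL fell with several neighbouring enzymes, and because SREBF2 is the regulator of the sterol branch. Each sequence is 1 RefSeq promoter of 300 bases, from 250 before to 50 after the start of the gene, in build GRCh38.p14. Capitals mark CCAAT (the core of the NF-Y site, which often accompanies sterol elements), CACGTG (the E-box) and TCACNCCAC (the form of sterol element searched), on either strand.
TM7SF2, chr11:65111622-65111921, plus strand: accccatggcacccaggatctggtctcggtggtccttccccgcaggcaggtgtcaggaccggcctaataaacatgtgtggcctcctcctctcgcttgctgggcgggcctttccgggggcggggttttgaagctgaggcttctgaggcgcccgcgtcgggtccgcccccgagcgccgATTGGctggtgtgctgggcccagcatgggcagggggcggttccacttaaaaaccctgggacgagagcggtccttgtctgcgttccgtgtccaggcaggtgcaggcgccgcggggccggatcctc
LBR, chr1:225428772-225429071, minus strand: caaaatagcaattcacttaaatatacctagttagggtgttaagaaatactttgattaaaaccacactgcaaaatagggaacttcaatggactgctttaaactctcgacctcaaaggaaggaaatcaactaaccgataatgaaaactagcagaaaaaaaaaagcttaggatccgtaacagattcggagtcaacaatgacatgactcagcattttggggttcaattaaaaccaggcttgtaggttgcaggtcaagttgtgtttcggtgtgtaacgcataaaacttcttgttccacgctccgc
NSDHL, chrX:152830813-152831112, plus strand: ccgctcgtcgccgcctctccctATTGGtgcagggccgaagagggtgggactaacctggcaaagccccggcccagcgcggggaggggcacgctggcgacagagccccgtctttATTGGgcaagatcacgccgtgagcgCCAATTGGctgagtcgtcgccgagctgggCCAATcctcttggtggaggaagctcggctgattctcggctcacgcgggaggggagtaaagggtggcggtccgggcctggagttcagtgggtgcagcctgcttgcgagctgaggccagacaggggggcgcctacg
SREBF2, chr22:41832855-41833154, plus strand: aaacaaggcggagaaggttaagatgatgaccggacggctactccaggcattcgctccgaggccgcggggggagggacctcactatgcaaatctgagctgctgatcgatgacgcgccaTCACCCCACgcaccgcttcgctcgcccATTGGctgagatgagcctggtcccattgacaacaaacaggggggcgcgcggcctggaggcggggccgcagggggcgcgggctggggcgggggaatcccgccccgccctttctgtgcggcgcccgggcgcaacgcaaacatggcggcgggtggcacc

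The RefSeq promoter set used held entries for 29 of the 33 members, with 40 promoters between them. ACAT2, FDFT1, SQLE and FASN had no entry in it and were not searched, so the fatty acid counts below leave out FASN. CCAAT or its complement was present in 25 of the 40 promoters (62.5%), against 34.6% of all 35116 promoters of the same length. Among sterol enzymes it was present in 15 of 21 promoters (71.4%), and among fatty acid enzymes in 7 of 12 (58.3%). The NSDHL promoter held 5 copies, an overlapping pair among them, and the TM7SF2 promoter 1, while none of the motifs searched was found in the LBR window. CACGTG was found in 5 of the 40 member promoters (12.5%) and in 7.26% of all promoters, and none of the 12 fatty acid promoters held it. Promoters of the same gene can overlap, so that a site can be counted more than once. The CACGTG of SC5D and the CCAAT sites of ACLY were counted in this way. The sterol element TCACNCCAC was found in 1 member promoter, that of SREBF2, and in 1.13% of all promoters. A match describes the letters in this window and not a bound site. The lack of a match does not show that a promoter has no sterol element, since other forms were not searched.

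All values below are the deposited values, which are estimated reads scaled so that each library had the same upper quartile (1663.93). Read totals, estimated by taking the commonest low value of a library as that of a single read, ran from 24.2 to 46.8 in units of 1e6 reads. Changes are log2 differences of (value + 1) averaged over the 3 lines, ± the standard error from limma, and a gene was called at an adjusted p under 0.05 over the 14232 genes tested. HEXIM1, a gene that BET inhibitors are known to raise, had 9756, 8933 and 8566 with both agents, 7082, 6483 and 6269.6 with JQ1, 3029, 3119 and 2532 with GSK2801 and 2928, 3018 and 2510.0 with DMSO (SUM159, MDAMB231 and HCC1806 in that order). The epithelial markers EPCAM, CDH1 and KRT5 were high in HCC1806, whereas VIM and ZEB1 were high in SUM159 and MDAMB231. The other markers of these kinds separated the lines less sharply. With DMSO, KRT8 had 1332, 2962 and 7879.9 and KRT18 had 5482, 13513 and 41297 in SUM159, MDAMB231 and HCC1806. KRT14 was at most 91.6 in any library, and the mesenchymal marker FN1 had 106987, 23869.9 and 17551 with DMSO in the same order. The adipocyte and liver genes ADIPOQ, LEP, ALB, APOA1 and CYP7A1 were at 0 to 3.25 in every library. Among the other adipocyte markers, FABP4 reached 1509.9 with both agents, 203 with JQ1, 982 with GSK2801 and 177 with DMSO in SUM159, and at most 29.3 in the other lines. PLIN1 reached 382 in SUM159 with GSK2801 and at most 44.4 in the other libraries. The blood marker PTPRC stood at 422 in the SUM159 DMSO library and at most 60.4 in any other. Among the epithelial markers, KRT8 rose by 0.84 ± 0.26 with JQ1 (limma adjusted p = 0.049) and by 0.98 ± 0.26 with both agents (limma adjusted p = 0.0195). EPCAM fell by 1.25 ± 0.41 on the log2 scale with both agents (limma adjusted p = 0.0435). Its values were 0.945, 84 and 13765 with both agents and 4.69, 375 and 14289 with DMSO in SUM159, MDAMB231 and HCC1806. EPCAM thus changed little in HCC1806, and its SUM159 values were near the floor. In bulk RNA a change in the mix of cells and a change in RNA per cell cannot be told apart, and the part of these markers in the results was not tested.

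With JQ1 against DMSO, every call among the members fell in the sterol branch. Of 19 sterol enzymes, 2 rose (TM7SF2 and LSS) and 7 fell (ACAT2, FDPS, CYP51A1, LBR, NSDHL, HSD17B7 and EBP). Of 6 regulators and 8 fatty acid enzymes, 0 passed, and 1 of each had an unadjusted p under 0.05 by limma (SREBF1 and ELOVL6). Over all genes tested, 22.6% were called, 9.52% higher and 13.1% lower. Over all 33 members, the 9 calls are near that background. The median change was -0.18 for sterol enzymes, 0.16 for regulators and 0.17 for fatty acid enzymes, beside -0.08 for all genes tested. The fatty acid median depended on the lines included, at 0.41 without SUM159, 0.17 without MDAMB231 and -0.055 without HCC1806. In the same order the regulator median was 0.20, 0.016 and 0.13 and the sterol median 0.13, -0.34 and -0.30. TM7SF2 was the one member called with a change of 2-fold or more, with JQ1 and with both agents, beside 3.09% of all genes higher and 3.98% lower with JQ1, and 5.87% higher and 7.91% lower with both agents. In the plot of all members by line, the sterol enzymes called with JQ1 alone moved the same way in each line, whereas most fatty acid enzymes moved down in SUM159 and up in the other lines.

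**Figure D1:**
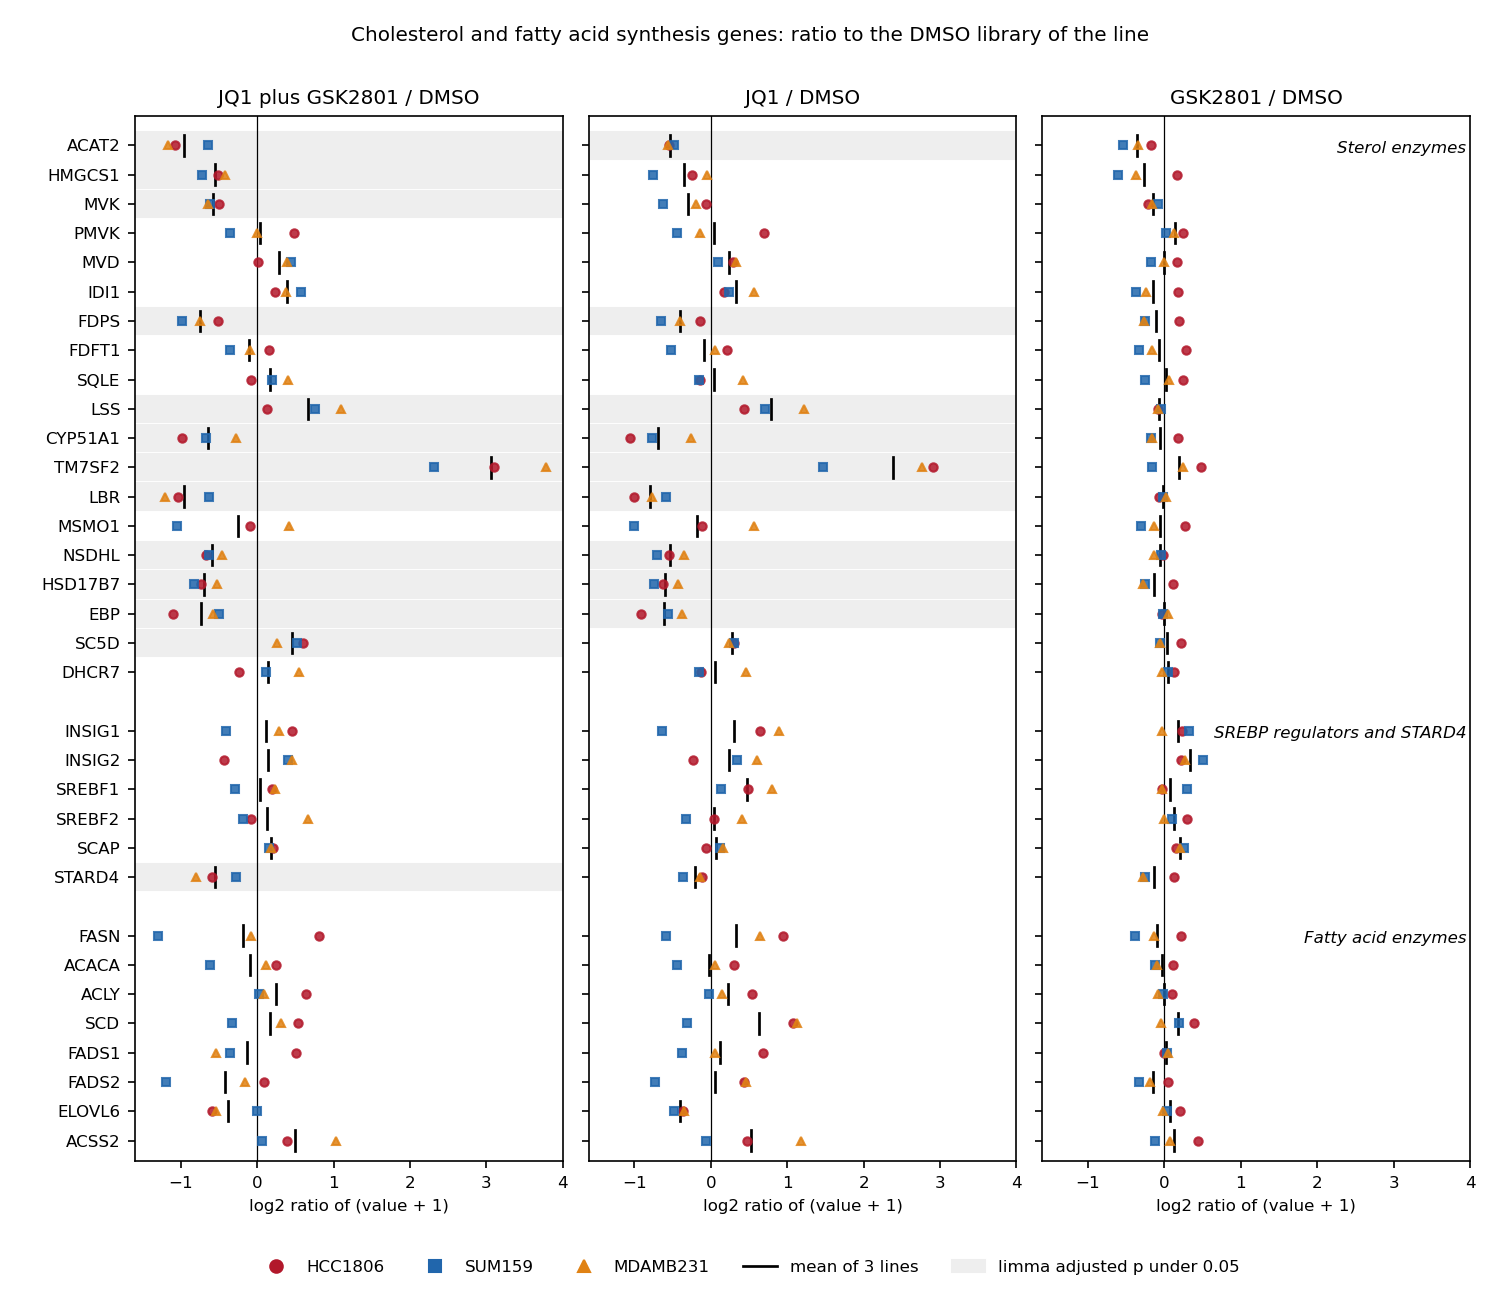
The log2 ratio of (value + 1) in each treated library to the DMSO library of the same line is plotted for all 33 members, in panels for JQ1 plus GSK2801, JQ1 and GSK2801. Symbols are the 3 lines, black ticks their mean, and grey bands mark members past the limma threshold: 13 with both agents, 9 with JQ1 and 0 with GSK2801.

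TM7SF2 (ENSG00000149809) lies on chromosome 11 and LBR (ENSG00000143815) on chromosome 1, at the promoter positions given above. The largest change was a shift between the enzymes that reduce the C14 double bond of the sterol ring. TM7SF2, one of them, had 526, 1029 and 4107 with both agents, 293, 508 and 3614 with JQ1, 94.5, 87.7 and 668 with GSK2801 and 105, 73.8 and 479 with DMSO in SUM159, MDAMB231 and HCC1806. In every line both libraries with JQ1 stood above both libraries without it. Across lines the combination range lay above the DMSO range, while the JQ1 range overlapped it, since the DMSO value of HCC1806 (479) exceeded the JQ1 value of SUM159 (293). TM7SF2 rose by 2.38 ± 0.30 with JQ1, a 5.21-fold change (limma adjusted p = 0.00185), and by 3.06 ± 0.30 with both agents, 8.36-fold (limma adjusted p = 2.7e-04). LBR, the lamin B receptor of the inner nuclear membrane, carries the other reductase. Its values in the same line order were 2732, 3525 and 4813 with both agents, 2825, 4740.3 and 4897 with JQ1, 4209.7, 8254 and 9386 with GSK2801 and 4245, 8113 and 9849 with DMSO. Again every JQ1 library was below both libraries without JQ1 in its line, and the ranges overlapped across lines. LBR fell by 0.79 ± 0.13 on the log2 scale with JQ1 (limma adjusted p = 0.00413) and by 0.96 ± 0.13 with both agents (limma adjusted p = 8.4e-04).

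Levels of the reductases were compared per kilobase of the principal transcript. TM7SF2 made up 29.9%, 39.3% and 65.4% of the summed per-kilobase level of the pair with both agents in SUM159, MDAMB231 and HCC1806. Its share was 18.7%, 19.2% and 62.0% with JQ1, 4.7%, 2.3% and 13.6% with GSK2801, and 5.2%, 2.0% and 9.7% with DMSO. HCC1806 was thus the line in which TM7SF2 exceeded LBR per kilobase, and it did so in both libraries with JQ1. TM7SF2 shares 16 exon bases with its neighbour VPS51, whose JQ1 change was 0.18 ± 0.10 (limma adjusted p = 0.224). Leaving HCC1806 out put the JQ1 changes at 2.12 for TM7SF2 (limma adjusted p = 0.0502) and -0.68 for LBR (0.0746), while both calls held without either other line, and both held for the combination whichever line was left out.

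LSS and CYP51A1 act one after the other at the start of the sterol chain and moved apart. LSS, which closes squalene epoxide into lanosterol, had 4666, 5229.9 and 4656 with both agents, 4485, 5661 and 5763 with JQ1, 2669, 2299 and 4007 with GSK2801 and 2756, 2435 and 4259.8 with DMSO in SUM159, MDAMB231 and HCC1806. The 3 JQ1 libraries and the 3 libraries with both agents all lay above the 3 DMSO libraries. Its rise was 0.79 ± 0.19 with JQ1 (limma adjusted p = 0.0185) and 0.66 ± 0.19 with both agents (limma adjusted p = 0.0242). CYP51A1, which demethylates lanosterol, had 3641, 4033 and 3669.9 with both agents, 3409, 4066 and 3485 with JQ1, 5128, 4357 and 8243 with GSK2801 and 5787, 4876 and 7269 with DMSO in the same order, and its JQ1 and combination libraries all lay below the DMSO libraries. It fell by 0.70 ± 0.20 on the log2 scale with JQ1 (limma adjusted p = 0.036) and by 0.64 ± 0.20 with both agents (limma adjusted p = 0.0341). CYP51A1 shares 79.4% of its exon bases with an annotated gene on the same strand, AC000120.2, so its values cannot be told apart from that gene.

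**Figure D2:**
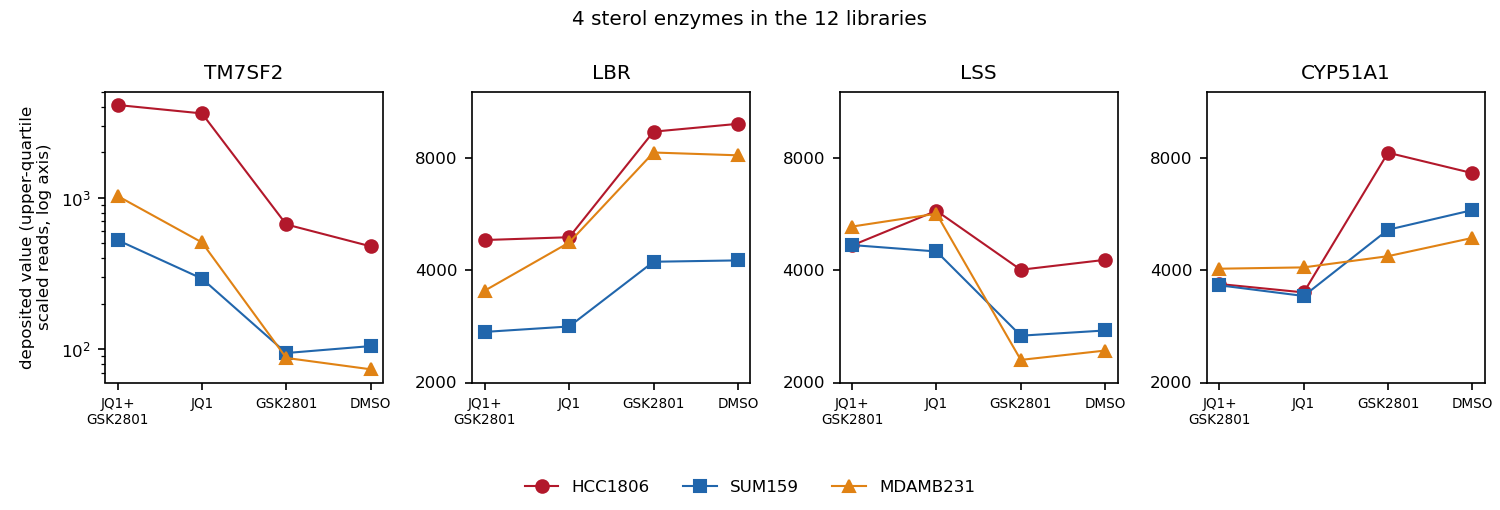
Deposited values of TM7SF2, LBR, LSS and CYP51A1 are plotted on log axes for the 12 libraries, 1 line of the plot per cell line, with JQ1 plus GSK2801, JQ1, GSK2801 and DMSO from left to right. TM7SF2 and LSS stand higher, and LBR and CYP51A1 lower, in the libraries with JQ1 than in those without it in each line.

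Enzymes of the C4 demethylation and isomerisation steps that follow fell together. NSDHL, a sterol dehydrogenase that removes the C4 carboxyl group, had 594, 799 and 1612 with both agents, 565, 863 and 1758 with JQ1, 895, 1008 and 2535 with GSK2801 and 919, 1104 and 2569 with DMSO in SUM159, MDAMB231 and HCC1806. HSD17B7, the ketosteroid reductase of the same complex, had 179.5, 249 and 736 with both agents, 190.1, 267 and 798 with JQ1, 268, 296 and 1326 with GSK2801 and 319, 359 and 1227 with DMSO in that order. EBP, the isomerase that moves the ring double bond, had 1492, 784 and 2606 with both agents, 1430.4, 908 and 2970.3 with JQ1, 2093, 1217 and 5478 with GSK2801 and 2115, 1174 and 5618 with DMSO. For each of the 3 genes, both libraries with JQ1 stood below both libraries without it in every line, and the treatment ranges overlapped across lines, whose levels differ. With JQ1 the log2 changes were -0.53 ± 0.11 for NSDHL (limma adjusted p = 0.00955), -0.60 ± 0.15 for HSD17B7 (limma adjusted p = 0.0214) and -0.62 ± 0.14 for EBP (limma adjusted p = 0.0133). With both agents they were -0.59 ± 0.11 for NSDHL (limma adjusted p = 0.00368), -0.70 ± 0.15 for HSD17B7 (limma adjusted p = 0.00721) and -0.73 ± 0.14 for EBP (limma adjusted p = 0.00404).

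MSMO1, the oxygenase that begins C4 demethylation, did not follow them. It had 1619, 3307 and 7835 with both agents, 1676, 3674 and 7779 with JQ1, 2705, 2271 and 10087 with GSK2801 and 3352, 2484 and 8397 with DMSO in SUM159, MDAMB231 and HCC1806. SUM159 was lower with JQ1 and MDAMB231 higher, and the mean JQ1 change of -0.18 ± 0.29 did not pass (limma adjusted p = 0.685). SC5D, the desaturase that acts after EBP, had 1783, 1559 and 9814 with both agents, 1525, 1527 and 8005 with JQ1, 1193, 1244 and 7587 with GSK2801 and 1239, 1299.9 and 6499 with DMSO and was higher with JQ1 in all 3 lines. The rise of SC5D passed with both agents at 0.46 ± 0.10 (limma adjusted p = 0.00662) and was 0.28 ± 0.10 with JQ1 alone, which did not pass (limma adjusted p = 0.0677). DHCR7, the last reductase before cholesterol, had 4483, 6776 and 14678 with both agents, 3709, 6438 and 15733 with JQ1, 4286, 4546 and 18853 with GSK2801 and 4134, 4658 and 17255 with DMSO, with a JQ1 change of 0.06 ± 0.18 (limma adjusted p = 0.834).

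Of the mevalonate enzymes, ACAT2 and FDPS fell with JQ1. ACAT2, the cytosolic thiolase that makes acetoacetyl-CoA, had 917, 1170.0 and 289.9 with both agents, 1021, 1777 and 419 with JQ1, 979.8, 2053 and 545 with GSK2801 and 1430.0, 2619 and 614 with DMSO in SUM159, MDAMB231 and HCC1806. The JQ1 library was below the DMSO library in each line, but in SUM159 the GSK2801 library (979.8) was also below the JQ1 library (1021). FDPS, which makes farnesyl diphosphate, had 2098, 2626 and 2601 with both agents, 2638, 3351 and 3378 with JQ1, 3470.3, 3662 and 4277 with GSK2801 and 4143, 4421 and 3731 with DMSO, and all its JQ1 and combination libraries lay below the DMSO libraries. ACAT2 fell by 0.53 ± 0.15 on the log2 scale with JQ1 (limma adjusted p = 0.0341) and by 0.96 ± 0.15 with both agents (limma adjusted p = 0.00183). FDPS fell by 0.40 ± 0.11 with JQ1 (limma adjusted p = 0.0366) and by 0.75 ± 0.11 with both agents (limma adjusted p = 0.00166). ACAT2 overlaps SOD2-OT1, a noncoding gene not analysed here, over 33.9% of its exon bases, SOD2 over 26.5% and TCP1 over 9.2%, all on the opposite strand. The labels name both a stranded and an unstranded library kit, so reads of the strands may not be separated. TCP1 changed by -0.52 ± 0.19 with JQ1 (limma adjusted p = 0.0811) and SOD2 by 0.26 ± 0.12 (limma adjusted p = 0.16), and SOD2 rose by 0.43 ± 0.12 with both agents (limma adjusted p = 0.026). FDPS likewise shares 18.6% of its exon bases with RUSC1-AS1, which was at most 98 in any library.

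HMGCS1 and MVK passed against DMSO with both agents and not with JQ1 alone. HMGCS1, the synthase that commits acetoacetyl-CoA to the pathway, had 1397, 1196 and 11692 with both agents, 1368, 1554 and 14072 with JQ1, 1522, 1244 and 18689 with GSK2801 and 2309, 1603 and 16733 with DMSO in SUM159, MDAMB231 and HCC1806. MVK, mevalonate kinase, had 545, 779.6 and 1671 with both agents, 543, 1065 and 2255 with JQ1, 790.1, 1083 and 2033 with GSK2801 and 839, 1217 and 2354 with DMSO. Within each line both genes were lower with both agents than with DMSO. HMGCS1 fell by 0.55 ± 0.16 on the log2 scale (limma adjusted p = 0.0289) and MVK fell by 0.59 ± 0.13 (limma adjusted p = 0.01) with the combination, against -0.35 ± 0.16 (limma adjusted p = 0.155) and -0.29 ± 0.13 (limma adjusted p = 0.144) with JQ1 alone. No member passed the test of the combination against JQ1 alone, so a difference between these conditions was not shown for either gene. The HMGCS1 call was lost whichever line was left out (limma adjusted p = 0.136, 0.0645 and 0.0792 without SUM159, MDAMB231 and HCC1806), and the MVK call without MDAMB231 (0.0781) or HCC1806 (0.0523).

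The remaining mevalonate and squalene enzymes stayed under the threshold with JQ1. IDI1, the isopentenyl diphosphate isomerase, had 3524, 4658 and 4989 with both agents, 2793, 5307 and 4816 with JQ1, 1821, 3028 and 4810.0 with GSK2801 and 2364, 3592 and 4262 with DMSO in SUM159, MDAMB231 and HCC1806 and was higher with JQ1 in each line, with a change of 0.33 ± 0.16 (limma adjusted p = 0.182). PMVK, phosphomevalonate kinase, had 334, 552 and 278 with both agents, 315, 500.3 and 323 with JQ1, 438, 606 and 236 with GSK2801 and 430.1, 553 and 199 with DMSO. PMVK was lower with JQ1 in SUM159 and MDAMB231 and higher in HCC1806. MVD, FDFT1 and SQLE, which make isopentenyl diphosphate, squalene and squalene epoxide, had JQ1 changes of 0.24, -0.09 and 0.04, with limma adjusted p of 0.255, 0.685 and 0.883. IDI1 shares 14.8% and HMGCS1 15.0% of their exon bases with antisense genes.

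With JQ1 plus GSK2801 against DMSO, 3 members rose and 10 fell. Over all genes 34.8% were called, 15% higher and 19.8% lower, so that the members' share was near the background here too. The sterol enzymes gave 3 rises and 9 falls of 19, the regulators gave 1 fall of 6, STARD4, and the fatty acid enzymes gave none of 8. Every member called with JQ1 alone was called in the same direction with both agents, but the DMSO libraries are shared by these comparisons. The combination against GSK2801 alone compares none of the libraries of JQ1 against DMSO. The tests are still not independent, because the same 3 lines enter both and their standard errors come from a spread fitted over all 12 libraries. Against GSK2801 alone, the combination gave 4 rises (TM7SF2, LSS, SC5D and IDI1) and 8 falls (ACAT2, MVK, FDPS, LBR, NSDHL, HSD17B7, EBP and ELOVL6). There 29% of all genes were called, 11.8% higher and 17.2% lower. In that comparison TM7SF2 rose by 2.87 ± 0.30 (limma adjusted p = 5.4e-04) and LBR fell by 0.94 ± 0.13 on the log2 scale (limma adjusted p = 0.00129). CYP51A1 fell short of the threshold at -0.59 ± 0.20 (limma adjusted p = 0.0526), while IDI1 passed at 0.54 ± 0.16 (limma adjusted p = 0.0369), a call lost without SUM159 (0.281) or MDAMB231 (0.148).

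The counts changed with the lines included. With 2 lines only, JQ1 against DMSO gave 4 rises and 2 falls without SUM159, 1 and 5 without MDAMB231, and 1 and 0 without HCC1806. The combination against DMSO gave 1 and 8, 2 and 7, and 2 and 4 in the same order, and against GSK2801 it gave 1 and 6, 2 and 6, and 3 and 3. ACAT2, FDPS, TM7SF2, LBR and EBP were called with the combination against DMSO whichever line was left out. LSS lost that call without SUM159 (limma adjusted p = 0.168) or MDAMB231 (0.11). CYP51A1 (0.184 and 0.0932), HSD17B7 (0.0699 and 0.059) and SC5D (0.0657 and 0.0723) lost it without SUM159 or HCC1806, and NSDHL without HCC1806 (0.0583). With JQ1 alone FDPS lost its call whichever line was left out (limma adjusted p = 0.242, 0.131 and 0.063 without SUM159, MDAMB231 and HCC1806). NSDHL (0.0821 and 0.0968), HSD17B7 (0.135 and 0.119), EBP (0.0726 and 0.0783) and CYP51A1 (0.204 and 0.114) lost their JQ1 calls without SUM159 or HCC1806. LSS lost it without SUM159 (0.113) or MDAMB231 (0.0833), and ACAT2 without MDAMB231 (0.155) or HCC1806 (0.142). Leaving out 1 library at a time, of 12, ended the JQ1 calls of ACAT2, FDPS and CYP51A1 in 6 cases each, of HSD17B7 in 5, LSS in 3 and EBP in 2, and of TM7SF2, LBR and NSDHL in 0.

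Rescaling moved the balance of JQ1 calls: as deposited, 1355 genes rose and 1868 fell, against 1724 and 1466 after quantile normalization and 1693 and 1487 after median-of-ratios rescaling. The members then gave 3 rises and 5 falls, and 4 rises and 4 falls. The calls of ACAT2 (under both), HSD17B7 (under quantile normalization), and FDPS and CYP51A1 (under median of ratios) were among those lost. For the combination against GSK2801, 1684 genes rose and 2448 fell as deposited, against 2060 and 1865 after quantile normalization, with 4 rises and 6 falls among members.

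No member passed with GSK2801 alone. Of 14232 genes none passed (0% called), 161 had an unadjusted p under 0.05 by limma, and 2 of these were members. The largest changes among sterol enzymes were ACAT2 (-0.36 ± 0.15) and HMGCS1 (-0.27 ± 0.16), among the regulators INSIG2 (0.33 ± 0.20) and SCAP (0.21 ± 0.08), and among the fatty acid enzymes SCD (0.18 ± 0.29) and FADS2 (-0.16 ± 0.25). All 6 had a limma adjusted p of 1. In SUM159, 17 of the 19 sterol enzymes were lower with GSK2801, with a median log2 ratio of -0.17, beside 0.01 for all genes in that line. Of the 14232 genes, 6394 were lower there. In MDAMB231 14 of the 19 sterol enzymes were lower, whereas in HCC1806 13 were higher.

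Adding GSK2801 to JQ1 also gave no call among 14232 genes (0% called), with 1031 genes at an unadjusted p under 0.05 by limma, 5 of them members. With drug effects of each line's own, 1 GSK2801 estimate serves this comparison too, so the 103 and 23 calls are the same. TM7SF2 was 0.68 ± 0.30 in this comparison (limma adjusted p = 0.674), with log2 ratios of 0.84 in SUM159, 1.02 in MDAMB231 and 0.18 in HCC1806. ACAT2 was -0.43 ± 0.15 and FDPS -0.35 ± 0.11, SREBF1 -0.43 ± 0.18 and STARD4 -0.35 ± 0.15, FASN -0.52 ± 0.34 and FADS2 -0.47 ± 0.25, and none passed (limma adjusted p between 0.562 and 0.82). The test for departure from additivity, on the log2 scale, gave 0 calls (0%), 171 genes at an unadjusted p under 0.05 by limma, and no member among them. The largest departures per branch were -0.64 ± 0.41 for SCD and -0.43 ± 0.48 for FASN, -0.51 ± 0.25 for SREBF1 and -0.43 ± 0.28 for INSIG2, and 0.49 ± 0.42 for TM7SF2 and -0.24 ± 0.16 for FDPS, each with a limma adjusted p of 1.

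Among the regulators, no gene passed with JQ1, and STARD4 alone passed with both agents. STARD4, which carries sterol between membranes and is itself a sterol-responsive gene, had 1086, 1532 and 1005 with both agents, 1016, 2423 and 1408 with JQ1, 1102, 2189 and 1665 with GSK2801 and 1312, 2661 and 1519.9 with DMSO in SUM159, MDAMB231 and HCC1806. It was lowest with both agents in MDAMB231 and HCC1806 and not in SUM159. STARD4 fell by 0.56 ± 0.15 on the log2 scale with the combination (limma adjusted p = 0.0212), and the call was lost without MDAMB231 (0.145) or HCC1806 (0.103).

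SREBF1 had 6242, 3214 and 10925 with both agents, 8367, 4797 and 13415 with JQ1, 9341, 2701 and 9359 with GSK2801 and 7626, 2747 and 9583 with DMSO in SUM159, MDAMB231 and HCC1806. Its JQ1 library was above the DMSO library in every line, and the library with both agents was below the JQ1 library in every line. The JQ1 change was 0.47 ± 0.18 (limma adjusted p = 0.0851). SREBF1 shares 6.9% of its exon bases with RAI1 on the opposite strand, which fell by 0.62 ± 0.11 on the log2 scale with both agents (limma adjusted p = 0.00298). SREBF2 had 7859, 7161 and 11412 with both agents, 7099.9, 5962 and 12436 with JQ1, 9579, 4473 and 14849 with GSK2801 and 8929, 4506 and 12119 with DMSO, lower with JQ1 in SUM159 and higher in MDAMB231. SCAP had 4059, 2512 and 4669 with both agents, 3972, 2492 and 3865 with JQ1, 4388, 2573 and 4488 with GSK2801 and 3661, 2224 and 4034 with DMSO, a range of 2224 to 4669 over all libraries.

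INSIG1, which is both a brake on SREBP processing and a well-known SREBP target, had 5074, 5912 and 3414 with both agents, 4346, 8972 and 3896 with JQ1, 8468, 4760.0 and 2933 with GSK2801 and 6755, 4846 and 2492 with DMSO in SUM159, MDAMB231 and HCC1806. With JQ1 it was lower in SUM159 and higher in MDAMB231 and HCC1806. Its mean JQ1 change of 0.30 ± 0.30 did not pass (limma adjusted p = 0.504). INSIG2, its paralogue, had 437, 1192 and 839 with both agents, 417, 1326 and 966 with JQ1, 466, 1051 and 1318 with GSK2801 and 329, 868 and 1135 with DMSO and was higher with JQ1 in SUM159 and MDAMB231 and lower in HCC1806.

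The sterol and fatty acid branches were then compared within each line. With JQ1, the sterol enzymes had a median log2 ratio of -0.53 (SUM159), -0.04 (MDAMB231) and -0.13 (HCC1806). The median of the fatty acid enzymes was -0.41 for SUM159, 0.30 for MDAMB231 and 0.51 for HCC1806, and that of all genes -0.12, -0.03 and 0.01. In SUM159 both branches were thus mostly lower, with 14 of 19 sterol and 8 of 8 fatty acid enzymes below DMSO. In MDAMB231 and HCC1806 7 of 8 fatty acid enzymes were above DMSO, while 10 of 19 and 12 of 19 sterol enzymes were below it. Of the 14232 genes tested, 8366 were below DMSO in SUM159, 7431 in MDAMB231 and 6862 in HCC1806. Those above it numbered 5538, 6383 and 7194 in the same order. Each of these medians comes from 1 library against 1 library and carries no test.

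With both agents, in the same order, the fatty acid median stood at -0.34, 0.01 and 0.45 and the sterol median at -0.50, -0.10 and -0.23. GSK2801 alone gave fatty acid medians of -0.07, -0.07 and 0.16 and sterol medians of -0.17, -0.13 and 0.16. The gap between branches was thus widest in HCC1806 under both treatments with JQ1, and in SUM159 both medians stayed below 0. JQ1 moved 14 of 19 sterol enzymes the same way in all 3 lines, 5 higher and 9 lower, and 1 of 8 fatty acid enzymes, beside 50.6% of all genes. The log2 ratio of the combination over GSK2801 was larger than that of JQ1 over DMSO for 17 of 19 sterol enzymes in SUM159 and smaller for 17 of 19 in HCC1806. In MDAMB231 it was larger for 10 and smaller for 9. Over all genes tested it was larger for 6753 and smaller for 7281 in SUM159, 7606 and 6389 in MDAMB231, and 6055 and 8062 in HCC1806. These counts rest on single libraries, and the test for departure from additivity called no gene. They also use the same GSK2801 and DMSO libraries as the counts for GSK2801 alone. For the fatty acid enzymes the ratio of the combination over GSK2801 was the smaller one for 5 of 8 in SUM159, 6 of 8 in MDAMB231 and 8 of 8 in HCC1806.

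SCD, the desaturase that makes oleate and palmitoleate, had the highest values of all members. It had 46648, 37530.1 and 157608 with both agents, 47608, 65722 and 228963 with JQ1, 67451, 29209 and 142124 with GSK2801 and 58859.7, 30186 and 108580.0 with DMSO in SUM159, MDAMB231 and HCC1806. JQ1 libraries stood above DMSO in MDAMB231 and HCC1806 and below it in SUM159, and the value with both agents was below that with JQ1 alone in each line. FASN, the fatty acid synthase, had 459, 399 and 849.9 with both agents, 754, 657 and 934 with JQ1, 868, 383 and 566 with GSK2801 and 1129.6, 421 and 485 with DMSO in the same order. FASN was below DMSO with JQ1 in SUM159 and above it in MDAMB231 and HCC1806. The mean JQ1 changes were 0.63 ± 0.29 for SCD (limma adjusted p = 0.147) and 0.33 ± 0.34 for FASN (limma adjusted p = 0.504).

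ACSS2, acetyl-CoA synthetase, had 2295, 1881 and 2571 with both agents, 2106, 2078 and 2725 with JQ1, 2016, 965 and 2666 with GSK2801 and 2191, 919 and 1961 with DMSO in SUM159, MDAMB231 and HCC1806. JQ1 stood above DMSO in MDAMB231 and HCC1806 and slightly below it in SUM159. ACLY, the citrate lyase, had 17305, 17138 and 11180.4 with both agents, 16726, 17797 and 10444 with JQ1, 16875, 15119.5 and 7692 with GSK2801 and 17069.8, 16057 and 7165 with DMSO, and ACACA, acetyl-CoA carboxylase, had 6109.6, 5770.3 and 6978 with both agents, 6911, 5563 and 7292 with JQ1, 8680.1, 5000.3 and 6389 with GSK2801 and 9415, 5344 and 5897 with DMSO. In both genes the JQ1 libraries of HCC1806 stood above its other libraries, and ACACA was lower with JQ1 in SUM159.

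ELOVL6, which elongates palmitate, was the fatty acid gene that moved the same way in each line with JQ1. It had 4063, 2207 and 3049 with both agents, 2919, 2535 and 3553 with JQ1, 4168, 3178 and 5275 with GSK2801 and 4085, 3219 and 4586 with DMSO in SUM159, MDAMB231 and HCC1806. Each JQ1 library was below the DMSO library of its line, and the change was -0.40 ± 0.15 (limma adjusted p = 0.0785). The fall passed for the combination against GSK2801 at -0.45 ± 0.15 (limma adjusted p = 0.0448), a call that was lost without MDAMB231 (0.189) or HCC1806 (0.317). FADS1, the delta-5 desaturase of polyunsaturated fatty acids, had 4442, 7598 and 2889 with both agents, 4376, 11487 and 3279.7 with JQ1, 5823, 11398 and 2029 with GSK2801 and 5665, 11058 and 2040.2 with DMSO, and its neighbour FADS2, the delta-6 desaturase, had 181, 7541 and 521 with both agents, 249.6, 11513 and 665 with JQ1, 332, 7405 and 505 with GSK2801 and 416, 8402 and 490.1 with DMSO. FADS2 stood at 7405 or more in every MDAMB231 library and at 665 or less in every other, and both genes were higher with JQ1 in HCC1806 and lower in SUM159. FADS1 and FADS2 share 490 exon bases on opposite strands.

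**Figure D3:**
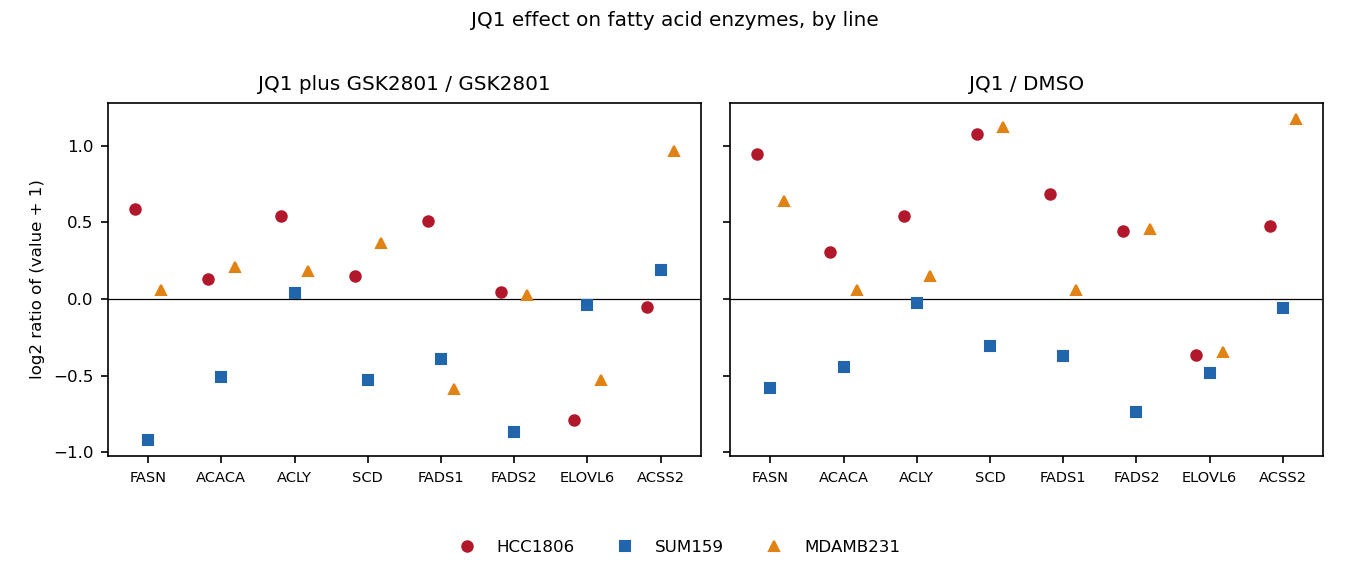
The log2 ratio of (value + 1) of the 8 fatty acid enzymes is plotted by line for JQ1 plus GSK2801 over GSK2801 and for JQ1 over DMSO. With JQ1 over DMSO, 8 of 8 points of SUM159 lie below 0 and 7 of 8 of MDAMB231 and of HCC1806 lie above it, ELOVL6 being the exception.

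The difference between lines was tested with a JQ1 effect of its own for each line, estimated from JQ1 over DMSO and from the combination over GSK2801 together. What that model leaves as residual is how far a line departs from additive effects, not how far cultures differ. The JQ1 effect in HCC1806 differed from the mean of SUM159 and MDAMB231 for 10 members, 5 higher and 5 lower, while 25.1% of all genes were called (14.5% higher and 10.6% lower). Of the fatty acid enzymes, 4 of 8 were called higher: FASN by 0.96 ± 0.21 (limma adjusted p = 0.0167), FADS1 by 0.92 ± 0.17 (limma adjusted p = 0.00933), ACLY by 0.46 ± 0.09 (limma adjusted p = 0.0128) and ACACA by 0.39 ± 0.10 (limma adjusted p = 0.0276). Of the sterol enzymes, PMVK was called higher and LSS, CYP51A1, EBP and DHCR7 lower, and INSIG2 was the regulator called lower. Rescaling turned the balance over all genes from 2057 higher and 1513 lower to 1963 and 1896 (quantile) or 1630 and 1926 (median of ratios), with 5 and 5 or 5 and 6 members.

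Between SUM159 and MDAMB231, which share a medium, the JQ1 effect was lower in SUM159 for 12 members and higher for none, while 29.2% of all genes were called (11.4% higher and 17.9% lower). The fatty acid enzymes gave 5 of 8, the sterol enzymes 5 of 19 and the regulators 2 of 6. FASN differed by -1.10 ± 0.24 (limma adjusted p = 0.0151), SCD by -1.16 ± 0.35 (limma adjusted p = 0.0444), FADS2 by -1.04 ± 0.19 (limma adjusted p = 0.0087), ACSS2 by -1.004 ± 0.19 (limma adjusted p = 0.00918) and ACACA by -0.61 ± 0.11 (limma adjusted p = 0.00901). MSMO1 had the largest difference of any member, -1.42 ± 0.13 (limma adjusted p = 0.00147), and was called under all 21 alternatives. INSIG1 differed by -1.29 ± 0.21 (limma adjusted p = 0.0057) and SREBF2 by -0.85 ± 0.16 (limma adjusted p = 0.00948). The median difference of all genes was -0.10 as deposited and 0.03 after quantile normalization, under which 2247 genes were higher and 2025 lower, against 1617 and 2542 as deposited, and 10 members were called lower. The calls of TM7SF2 and SCD were the least stable, lost in 19 and 18 of 21 alternatives. Line and JQ1 dose (300 nM in SUM159 and 100 nM in MDAMB231) cannot be told apart.

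The calls of both line tests changed with the libraries included. For HCC1806 against the others, 1 member was called higher and 10 lower without SUM159, 8 and 4 without MDAMB231, and 0 higher and 0 or 1 lower when any 1 HCC1806 library was left out. Without SUM159, the differences of FASN (limma adjusted p = 0.253), ACACA (0.647), ACLY (0.0595) and PMVK (0.0876) no longer passed, while that of FADS1 did (0.0323). Without MDAMB231, DHCR7 (0.304) and INSIG2 (0.118) no longer passed. For SUM159 against MDAMB231, 10 were called lower without HCC1806 (CYP51A1 at 0.0523 and TM7SF2 at 0.0752 were lost), 5 or 6 without any 1 MDAMB231 library and 1 or 2 without any 1 SUM159 library. The GSK2801 effect of HCC1806 differed from that of the other lines for 0 of 14232 genes (0%), with 712 at an unadjusted p under 0.05 by limma, 2 of them members.

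Levels in the DMSO libraries also separated the branches by line. HCC1806 had the highest value for 16 of 19 sterol enzymes, against 35.1% of all genes tested, and the median sterol enzyme stood 2.61-fold above the geometric mean of the other lines. SQLE, squalene epoxidase, had 27822 in HCC1806, 4297 in SUM159 and 1515 in MDAMB231. HMGCS1 had 16733 in HCC1806, 2309 in SUM159 and 1603 in MDAMB231. ACAT2, PMVK and FDPS were the sterol enzymes lowest in HCC1806. The fatty acid enzymes did not share the pattern: HCC1806 was highest for 2 of 8 and the median ratio was 0.765-fold. These are single libraries per line in different media, and no test was made.

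**Figure D4:**
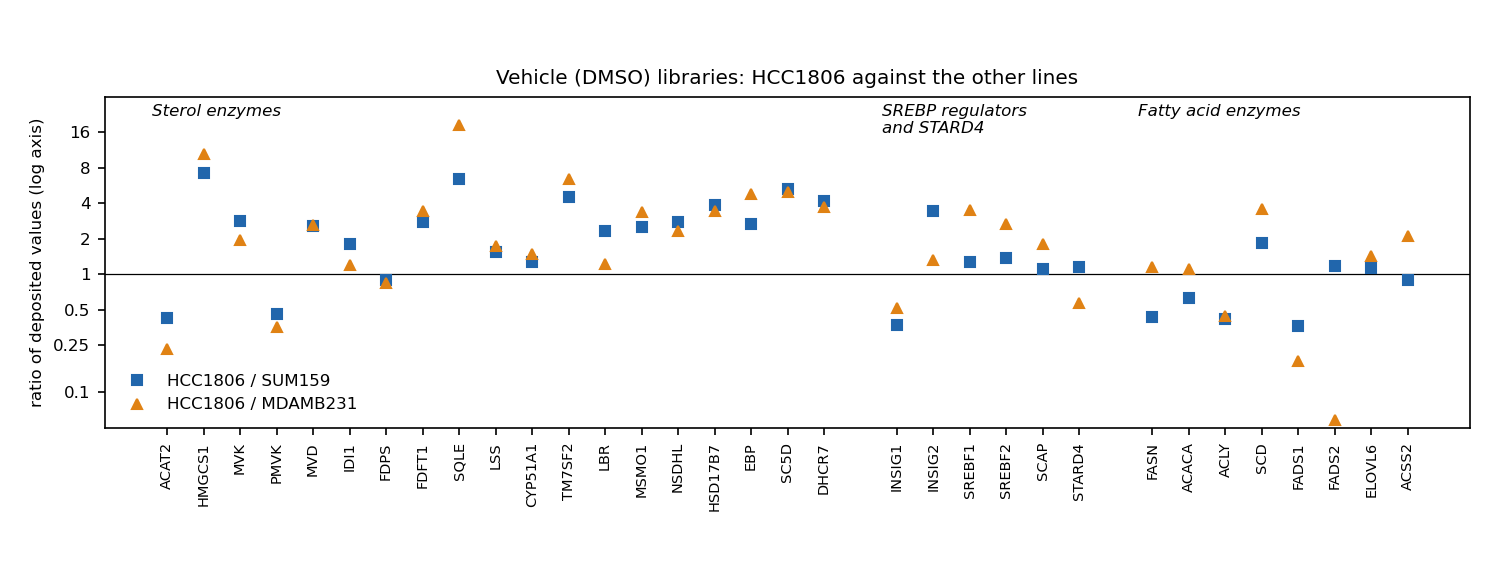
The ratio of the DMSO value in HCC1806 to that in SUM159 (squares) and MDAMB231 (triangles) is plotted on a log axis for each member. Most sterol enzymes lie above 1, up to 18.4 for SQLE, and FADS2 lies lowest.

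Other genes of lipid metabolism were counted in lists, each to be read beside the 22.6% of all genes called with JQ1 (9.52% higher and 13.1% lower). Of 7 LXR targets and efflux genes, 2 rose and 0 fell with JQ1: MYLIP, the ligase that degrades lipoprotein receptors, by 1.21 ± 0.27 (limma adjusted p = 0.0144) and LPCAT3, a phospholipid acyltransferase, by 0.64 ± 0.17 (limma adjusted p = 0.0243). Of 13 genes of sterol uptake and movement, 2 rose and 2 fell. Among them STARD5 rose by 0.90 ± 0.25 (limma adjusted p = 0.032). LRP8 fell by 0.53 ± 0.12 on the log2 scale (limma adjusted p = 0.0174) and SCARB1, the HDL receptor, fell by 0.61 ± 0.18 (limma adjusted p = 0.0427).

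Of 8 genes of SREBP processing and sterol-regulated degradation, 3 rose and 1 fell with JQ1, beside 9.52% and 13.1% of all genes. The proteases that release the SREBPs moved apart: MBTPS1 rose by 0.51 ± 0.10 (limma adjusted p = 0.00768) and MBTPS2 fell by 0.48 ± 0.11 on the log2 scale (limma adjusted p = 0.0165). USP20 rose by 0.81 ± 0.20 (limma adjusted p = 0.022). Of 10 genes of the isoprenoid branch, 0 rose and 4 fell, beside the same shares. These included PDSS1 and PDSS2, subunits of the enzyme that builds the ubiquinone tail, at -0.82 ± 0.22 (limma adjusted p = 0.0308) and -0.50 ± 0.13 (limma adjusted p = 0.0223), and NUS1, a subunit of the dolichol-forming enzyme, at -0.42 ± 0.09 (limma adjusted p = 0.0135).

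Of 24 genes of fatty acid elongation, activation and glycerolipid synthesis, 4 rose and 2 fell with JQ1, near the 22.6% called over all genes. SLC25A1, the mitochondrial carrier that exports the citrate used by ACLY, had 7549, 9168 and 4472 with both agents, 5858, 6861 and 3909.8 with JQ1, 3648, 1649 and 1822 with GSK2801 and 2757, 1623 and 1563 with DMSO in SUM159, MDAMB231 and HCC1806. It stood higher in every library with JQ1 than in any without, and rose 2.82-fold with JQ1 (limma adjusted p = 0.00566) and 3.54-fold with both agents (limma adjusted p = 0.00128). ACSL5, a long-chain acyl-CoA synthetase, had 57.3, 754 and 29.6 with both agents, 57, 1120.2 and 14.3 with JQ1, 1700.3, 2229 and 602 with GSK2801 and 1389, 2639 and 384 with DMSO and fell by 3.49 ± 0.76 on the log2 scale with JQ1 (limma adjusted p = 0.013). TECR, a reductase of fatty acid elongation, rose by 0.55 ± 0.11 (limma adjusted p = 0.00837) and ACSL3, another acyl-CoA synthetase, by 0.48 ± 0.14 (limma adjusted p = 0.0404), while MLX, a partner of the glucose-responsive factors, fell by 0.57 ± 0.12 (limma adjusted p = 0.0105). Of 10 genes of fatty acid oxidation, 3 rose and 0 fell with JQ1, beside 9.52% and 13.1% of all genes, and 6 rose and 0 fell with both agents, beside 15% and 19.8%. ACADVL, a mitochondrial dehydrogenase of very long chains, rose by 0.84 ± 0.25 with JQ1 (limma adjusted p = 0.0433) and HADHB by 0.49 ± 0.12 (limma adjusted p = 0.0208).

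With both agents, counts in the lists were 2 rises and 0 falls of 7 for LXR targets, 2 and 1 of 13 for uptake, 3 and 2 of 8 for SREBP processing, 0 and 4 of 10 for isoprenoids and 3 and 2 of 24 for elongation and glycerolipids, beside 15% of all genes higher and 19.8% lower. Among the oxidation genes that rose there were ACADVL at 1.13 ± 0.25 (limma adjusted p = 0.00909) and PPARA at 0.92 ± 0.29 (limma adjusted p = 0.035).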

How the data were processed

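PolyA RNA of the 12 cultures was sequenced as 1 library per line and treatment. Per the submitters' processing notes, the authors used STAR 2.4 and Salmon 0.60 with build hg38. The deposited values are a signal: the authors' estimated reads per gene symbol, scaled so that the upper quartile of values above 0 is 1663.93 in every library. The commonest low value of a library was taken as that of a single read. Between 67.1% and 69.2% of values above 0 were whole multiples of it (tolerance 0.02), so that whole reads could not be recovered. No count model was therefore used, and the edgeR and DESeq2 fits planned for counts were not run. Of 28539 entries, 27 symbols turned into dates were left out.

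Values were tested as log2(value + 1) with limma 3.58.1 (R 4.3.3; tables with Python 3.11.15 and pandas 2.3.3), with a variance trend and cell line and treatment as terms, after a filter of a mean value of at least 10, which left 14232 genes. The model has 6 residual degrees of freedom, and p-values were adjusted by Benjamini-Hochberg over all genes tested. Line differences in the JQ1 or GSK2801 effect were tested in a model with both effects per line (3 residual degrees of freedom). Each was tested on simulated data with known JQ1 changes and the same spread of a gene in every library. Unequal spread between treatments was not simulated. Libraries are paired by cell line, as the labels name it: libraries of 1 line correlated at 0.935 to 0.993 and libraries of different lines at 0.685 to 0.81. Because each line had 1 culture per treatment, p-values of the treatment tests rest on how far treatment effects varied between lines. That spread was pooled over all 4 treatments, so it is not the spread of the effect in any 1 comparison. The p-values of the line tests rest on how far a line departed from additive effects.

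The members and gene lists were chosen with earlier results of these data known. Each member past the threshold in a comparison, and the members of largest change per branch, are named. From the other lists at most 3 rises and 3 falls are named. The overlap genes were added after values were seen. Gene overlaps come from GENCODE v29 (GRCh38) and promoters from RefSeq (GRCh38.p14). Alternatives were other pseudocounts (0.5 and 10), filters (none and 50), rescalings, models, a threshold of 1.5-fold, and leaving out lines or libraries. Single values of some genes in the neighbouring lists are not reported here, although the genes stay in the lists' counts.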

Additional observations from a re-analysis of the deposited data

Results flagged for a closer look

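The results of 2 tests were singled out because a test of the difference itself found that the JQ1 effect differed between lines. The differences are on the log2 scale with limma adjusted p under 0.05, and whether dose, medium or line sets them was not tested.

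For HCC1806 against the mean of SUM159 and MDAMB231, the difference was 0.75 for PMVK, -0.65 for LSS, -0.71 for CYP51A1, -0.48 for EBP and -0.48 for DHCR7 among the sterol enzymes. It was -0.70 for INSIG2. Among the fatty acid enzymes it was 0.96 for FASN, 0.39 for ACACA, 0.46 for ACLY and 0.92 for FADS1. LSS rose least and CYP51A1 and EBP were lowered most in HCC1806, while PMVK was raised by JQ1 in HCC1806 and lowered in both other lines.

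For SUM159 against MDAMB231, the difference was -0.45 for LSS, -0.44 for CYP51A1, -1.19 for TM7SF2, -1.42 for MSMO1 and -0.57 for DHCR7. It was -1.29 for INSIG1 and -0.85 for SREBF2. Among the fatty acid enzymes it was -1.10 for FASN, -0.61 for ACACA, -1.16 for SCD, -1.04 for FADS2 and -1.004 for ACSS2. MSMO1, DHCR7, INSIG1, SREBF2, FASN, ACACA, SCD, FADS2 and ACSS2 had opposite signs in the 2 lines with JQ1 over DMSO. TM7SF2 and LSS rose in both, and CYP51A1 fell in both.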

How the results depend on the processing

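Over the 7227 comparisons of a value with its alternative, 6242 kept their direction and side of the threshold, 459 calls were lost and 66 were gained. A further 459 values changed direction with no call before or after, and 1 changed direction with a call. That 1 was the JQ1 effect of HCC1806 against the others for MSMO1, at 0.63 without MDAMB231, -0.79 without SUM159 and -0.08 with all lines. Tests in which no member was called had no call to lose. Without the cell line as replicate block, 0 members rose and 0 fell with JQ1, with both agents, and with both agents against GSK2801. In a fit to the compared libraries alone the counts were 1 and 1, 1 and 2, and 1 and 0. With drug effects of each line's own they were 7 and 12 for JQ1, which in that additive model is 1 estimate for JQ1 against DMSO and for both agents against GSK2801, and 6 and 13 with both agents against DMSO. A test against a 1.5-fold change left 1 and 0 in each, 0 and 0 for HCC1806 against the others and 1 lower for SUM159 against MDAMB231. With no variance trend 4 fell with JQ1, 2 and 2 differed in HCC1806 and 6 were lower in SUM159. Median-of-ratios rescaling gave 4 and 4 with JQ1.

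Leaving out a line or a library gave 1 to 4 rises and 0 to 8 falls with JQ1, 1 to 4 and 4 to 10 with both agents, and 1 to 5 and 3 to 7 against GSK2801. It gave 0 to 8 and 0 to 10 for HCC1806 against the others, and 0 to 1 and 1 to 10 for SUM159 against MDAMB231. The sterol median ranged from -0.36 to 0.13 with JQ1, -0.56 to 0.058 with both agents and -0.41 to -0.021 against GSK2801. The regulator median ranged from -0.014 to 0.28 with GSK2801 and -0.30 to 0.080 for both agents against GSK2801, and the fatty acid median from -0.055 to 0.41 with JQ1, -0.15 to 0.14 with GSK2801, -0.27 to 0.27 with both agents and -0.23 to 0.21 against GSK2801. The regulator median ranged from 0.014 to 0.21 with JQ1 and -0.032 to 0.20 with both agents. The cause of these shifts was not tested. Leave-one-out fits of a group with fewer lines assume that the remaining lines vary alike. Models limited to the compared libraries, or with each line's own effects, were not computed for additivity and line tests, and the line tests have no version without the block. Depth is an estimate, and 1 culture per line and treatment limits all p-values.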

Other observations

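Some genes of the neighbouring lists passed with both agents and not with JQ1 alone. TMEM97, an endoplasmic reticulum protein that binds sterols, had 1903, 798 and 1761 with both agents, 2110.4, 1009 and 1937 with JQ1, 1789.6, 1640.5 and 3399.8 with GSK2801 and 2124, 1778 and 3506 with DMSO in SUM159, MDAMB231 and HCC1806. It stood lower with JQ1 than without it in MDAMB231 and HCC1806 and changed little in SUM159, and it fell by 0.77 ± 0.23 on the log2 scale with both agents (limma adjusted p = 0.0288). FNTB, the beta subunit of farnesyltransferase, which uses the product of FDPS, had 338, 336 and 536 with both agents, 514, 449 and 621 with JQ1, 500.0, 446 and 658 with GSK2801 and 543, 470.0 and 727 with DMSO and fell by 0.53 ± 0.12 (limma adjusted p = 0.0081). ERLIN1, which takes part in sterol-regulated degradation, fell by 0.44 ± 0.09 (limma adjusted p = 0.00774). Whether the combination differed from JQ1 for these genes was tested and gave no call in the main test, as for all 14232 genes.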
